A study of Mus musculus with 98 samples.

Results

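The genes described here are 8 human genes that respond to temperature or protein damage, measured in livers of mice that carry human hepatocytes. They are CIRBP (ENSG00000099622), RBM3 (ENSG00000102317), HSPH1 (ENSG00000120694), HSP90AA1 (ENSG00000080824), DNAJB1 (ENSG00000132002), HSPA8 (ENSG00000109971), HSPA1A (ENSG00000204389) and HSPA5 (ENSG00000044574). They were chosen by gene identifier, with earlier results of these data known, and are 8 of the 17729 human rows of the liver count table. All 8 passed the filter on low counts, which left 12832 human rows for testing. They were grouped with the question whether their daily rhythm in human hepatocytes follows the body temperature and feeding of the mouse host. No body temperature or food intake is among the values used here, so that link was not tested.

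All animals were male FRGN mice, 10 weeks old, lacking Fah, Rag2 and Il2rg on a non-obese diabetic background. Loss of Fah lets transplanted hepatocytes replace those of the host, and loss of the other two genes removes the lymphocytes that would reject them. Hu livers had been repopulated with human hepatocytes and Mu livers with mouse hepatocytes. Animals of both arms were cycled on nitisinone with dextrose and antibiotics and ate a high-energy chow, and Hu mice were used only when repopulation exceeded 70%. Non-parenchymal cells and any remaining hepatocytes of a Hu liver are mouse cells, so each Hu liver gives human and mouse reads. How many human donors supplied the cells is not given in the sources used here.

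Livers were sampled at zeitgeber time (ZT, hours of the animals' light cycle) 2, 6, 10, 14, 18 and 22. There were 3, 3, 2, 2, 3 and 2 Hu livers at these times and 2 Mu livers at each, so 15 Hu and 12 Mu livers in all. ZT 14, 18 and 22 are called dark and ZT 2, 6 and 10 light. The light schedule itself is not stated in the labels used here.

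CIRBP and RBM3 are RNA-binding proteins whose transcripts accumulate under mild cold. The other members are chaperones. When unfolded protein accumulates, the transcription factor HSF1 is released and activates genes for HSP70 proteins (HSPA1A, HSPA8), their J-domain partner (DNAJB1), their nucleotide exchange factor (HSPH1) and HSP90 (HSP90AA1). HSPA5, also called BiP, is the HSP70 protein of the endoplasmic reticulum and belongs to the unfolded protein response. Mice are active and warmer in the dark phase, and heat shock genes of mouse liver are known to cycle with body temperature.

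Human rows held 12.1 to 103 M counts per Hu liver, and the human share of a Hu library ran from 15.9% to 93.1%. The mean share was 41.7%, 49.6%, 73.8%, 73.8%, 67.0% and 47.6% from ZT 2 to ZT 22, so it moved with the time of day. In bulk RNA, fewer cells of a type and less RNA per cell cannot be told apart. Levels below are in CPM, the usual depth-scaled count, here scaled to the human counts of a library alone, which removes the share itself from the scale. Mu livers, which hold no human cells, gave 0 to 17 counts in any member's human row, against at least 225 in any Hu liver. Scaled by the counts of the mouse ortholog, such misplaced reads could make up at most 0.219% of a member's counts in a Hu liver, the highest value being that of HSPA5.

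In the human rows, 5 of the 8 members were rhythmic over 24 h, against 1.08% of all human rows tested (139 of 12832). The 5 were HSPA1A, HSPA8, HSPH1, HSP90AA1 and RBM3, with fitted peaks between ZT 12.1 and ZT 17.1. DNAJB1, HSPA5 and CIRBP did not pass. The test was edgeR's quasi-likelihood F test of a cosine and a sine term, with Benjamini-Hochberg adjustment over all human rows and a threshold of 0.05. The median fitted amplitude, the log2 distance from mean to peak, was 0.83 over the 8 members and 0.15 over all rows tested. At an unadjusted p under 0.05 the test took 7 of the 8 members and 19.2% of all rows. The calls lay near the threshold: when each liver was left out in turn, between 0 and 5 members passed. Since the members were chosen with earlier results of these data known, their share beside that of all rows is a description only.

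HSPA1A, the stress-inducible cytosolic HSP70, had the largest fitted amplitude of the 8. Its level was 14.4, 13.2 and 13.2 CPM in the livers at ZT 2 and 21.6, 16.3 and 18.2 CPM at ZT 6. It was 37.4 and 62.0 CPM at ZT 10, 67.1 and 36.7 CPM at ZT 14, 39.9, 36.3 and 94.4 CPM at ZT 18, and 15.6 and 27.4 CPM at ZT 22. Every liver from ZT 10 to ZT 18 was above every liver at ZT 2 and ZT 6, while those at ZT 22 lay among or just above the low ones. The fitted amplitude was 1.17 ± 0.20 (log2, jackknife SE), a 5.05-fold range from trough to peak, with the peak at ZT 14.5 ± 0.831 h (edgeR adjusted p = 0.0159). The call held in 14 of 15 fits that left out a liver. HSPA1A has a near-identical copy in the genome, and how reads were split between the copies is not given in the sources used here, so its separate count is uncertain.

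HSPA8, the constitutive HSP70 of the cytosol, had the second largest amplitude. It was at 222, 201 and 129 CPM at ZT 2 and 229, 175 and 187 CPM at ZT 6. At ZT 10 it was at 537 and 723 CPM, at ZT 14 at 724 and 484 CPM, at ZT 18 at 380.2, 524 and 1069 CPM, and at ZT 22 at 199.5 and 531 CPM. The 2 livers at ZT 22 thus lay on either side of the gap between low and high livers. The amplitude was 1.08 ± 0.21 (log2), a 4.45-fold range, with the peak at ZT 15.01 ± 0.961 h (edgeR adjusted p = 0.0372), and 7 of 15 fits without a liver kept the call.

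HSPH1, the HSP110 protein that exchanges nucleotide on HSP70, was at 17.4, 19.6 and 12.7 CPM at ZT 2 and 15.2, 16.2 and 19.3 CPM at ZT 6. It was at 47.9 and 72.7 CPM at ZT 10, 61.8 and 31.8 CPM at ZT 14, 31.8, 41.3 and 84.5 CPM at ZT 18, and 17.8 and 38.2 CPM at ZT 22. As for HSPA8, all livers from ZT 10 to ZT 18 were above those at ZT 2 and ZT 6, and 1 of the livers at ZT 22 lay among the low ones. The amplitude was 1.03 ± 0.22 (log2), a 4.15-fold range, with the peak at ZT 14.6 ± 1.07 h (edgeR adjusted p = 0.0478). Only 4 of 15 fits without a liver kept this call.

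DNAJB1, the J-domain protein that hands clients to HSP70, ran from 35.6 to 50.7 CPM over the 6 livers at ZT 2 and ZT 6. It was at 91.6 and 113 CPM at ZT 10, 64.2 and 52.9 CPM at ZT 14, 69.1, 80.9 and 105 CPM at ZT 18, and 47.1 and 65.8 CPM at ZT 22. Its highest liver was at ZT 10. The amplitude was 0.53 ± 0.16 (log2) with the peak at ZT 14.7 ± 1.56 h, and the rhythm did not pass (edgeR adjusted p = 0.125). With DESeq2 in place of edgeR it did (adjusted p = 0.0304), in a fit that called 1125 human rows where edgeR called 139.

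HSP90AA1, the inducible cytosolic HSP90, was at 336, 430 and 265 CPM at ZT 2 and 217, 267 and 227 CPM at ZT 6. It was at 491 and 539 CPM at ZT 10, 780 and 511 CPM at ZT 14, 707, 974 and 999 CPM at ZT 18, and 386 and 801 CPM at ZT 22. Its 2 highest livers were both at ZT 18, and its peak was fitted later than that of any other member. The amplitude was 0.87 ± 0.12 (log2), a 3.33-fold range, with the peak at ZT 17.1 ± 0.766 h (edgeR adjusted p = 0.0136). The call held in 14 of 15 fits without a liver.

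HSPA5, the chaperone of the endoplasmic reticulum, was at 218, 232 and 125 CPM at ZT 2 and 153, 166 and 137 CPM at ZT 6. It was at 521 and 485 CPM at ZT 10, 445 and 323 CPM at ZT 14, 264.5, 532 and 588 CPM at ZT 18, and 197 and 498 CPM at ZT 22. The separation of the livers at ZT 10 to 18 from those at ZT 2 and 6 was as for the cytosolic chaperones. The amplitude was 0.80 ± 0.19 (log2) with the peak at ZT 15.5 ± 1.32 h, and the rhythm did not pass (edgeR adjusted p = 0.0905). With DESeq2, which called 1125 human rows, it did (adjusted p = 0.00741).

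The cold-inducible pair had the smallest amplitudes of the 8. RBM3 was at 29.3, 32.8 and 31.6 CPM at ZT 2, 38.0, 38.6 and 29.1 CPM at ZT 6, 56.2 and 38.8 CPM at ZT 10, and 42.2 and 65.7 CPM at ZT 14. It was at 33.9, 35.5 and 40.4 CPM at ZT 18 and 24.9 and 30.6 CPM at ZT 22. The 3 highest livers were at ZT 14 and ZT 10, and levels of neighbouring times overlapped. Its amplitude was 0.44 ± 0.12 (log2), a 1.83-fold range, with the peak at ZT 12.1 ± 0.735 h, earlier than that of any other member (edgeR adjusted p = 0.0472). The call held in 1 of 15 fits without a liver.

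CIRBP was at 87.4, 83.2 and 77.9 CPM at ZT 2 and 91.8, 83.5 and 74.7 CPM at ZT 6. It was at 100.8 and 55.6 CPM at ZT 10, 89.4 and 123.9 CPM at ZT 14, 102.7, 69.0 and 101.6 CPM at ZT 18, and 90.1 and 70.0 CPM at ZT 22. Livers of different times overlapped throughout. The amplitude was 0.13 ± 0.10 (log2), below the median of all rows, and the rhythm did not pass (edgeR adjusted p = 0.647).

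**Figure D1:**
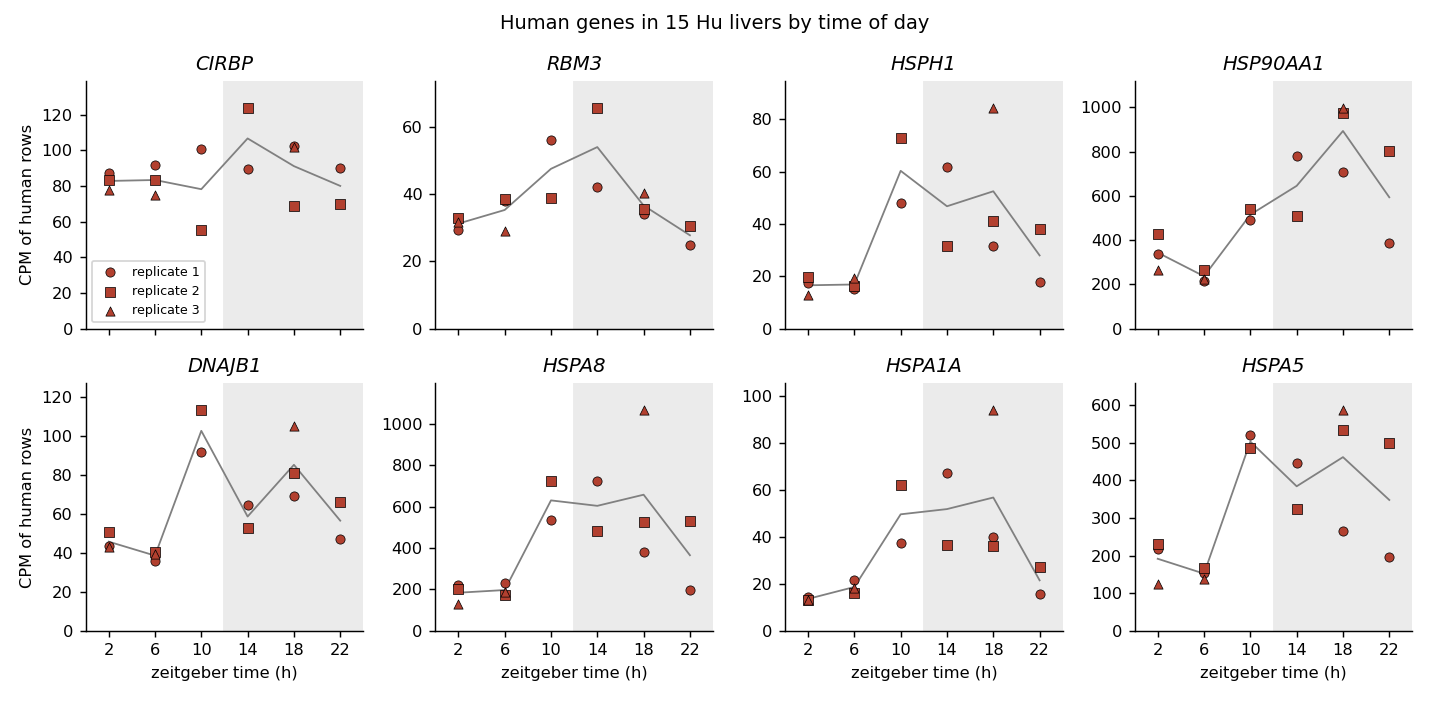
Levels of the 8 human genes (CPM of human counts, each axis from 0) against zeitgeber time (h) in the 15 Hu livers; each point is 1 liver, lines join the means of the time points, and ZT 12 to 24 is shaded. For HSPA1A, HSPA8, HSPH1, HSP90AA1, DNAJB1 and HSPA5 the 7 livers from ZT 10 to ZT 18 lie above the 6 livers at ZT 2 and ZT 6.

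The chaperones were low at ZT 6 and already high at ZT 10. The 7 livers at ZT 10, 14 and 18 were set against the 6 at ZT 2 and 6, a division chosen after the values were seen, so it carries no test. For 6 of the 8 members, the chaperones, every liver of the first set was above every liver of the second, against 1.33% of all rows tested. HSPA8 stood at 634 ± 229 and 190 ± 36.4 CPM (mean ± SD), a ratio of 3.33. The ratio was 3.31 for HSPA1A, 3.17 for HSPH1, 2.63 for HSPA5, 2.46 for HSP90AA1 and 1.96 for DNAJB1. RBM3, at 1.34, and CIRBP, at 1.11, overlapped between the sets. A late peak was common among rhythmic human rows: 73 of the 139 (52.5%) were fitted with a peak from ZT 10 to ZT 18.

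A plain comparison of dark with light, in which ZT 10 counts as light, gave less, and the cause was not tested. None of the 8 members passed the comparison (edgeR quasi-likelihood test), where 2 of 12832 rows did (0.0156%), 1 higher (0.00779%) and 1 lower (0.00779%) in the dark. At an unadjusted p under 0.05 it took 3 of the 8, HSP90AA1, HSPA8 and HSPA1A, and 14.4% of all rows. The difference between dark and light was 1.09 ± 0.24 for HSP90AA1 (log2, SE, adjusted p = 0.0953), 0.90 ± 0.39 for HSPA8 (adjusted p = 0.309) and 0.88 ± 0.40 for HSPA1A (adjusted p = 0.327). RBM3 differed by 0.09 ± 0.19 (adjusted p = 0.868) and CIRBP by 0.18 ± 0.14 (adjusted p = 0.570). With DESeq2, which called 287 rows, HSP90AA1 passed (adjusted p = 0.00212). Without the 2 livers at ZT 10, an alternative added after seeing the data, HSPA8 was higher in the dark by 1.55 on the log2 scale. The 6 chaperones then passed, among 139 rows (edgeR adjusted p = 0.0367 for HSPA8). ZT 10 was the light time at which they had been seen to be high, so leaving it out widens the difference by construction. These passes therefore carry no test.

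The human share was also high at ZT 10, 14 and 18. In a model with the time terms, no member's slope on the share passed (edgeR quasi-likelihood test), and no row of the table did (0%). At an unadjusted p under 0.05 it took 1 of the 8, HSPH1, and 13% of all rows, and DESeq2 called 171 rows. Per 10 percentage points of human share, HSPH1 was higher by 0.16 ± 0.07 (log2, SE, adjusted p = 0.370). The slopes of the other chaperones lay between 0.08 and 0.10, that of RBM3 was 0.02 ± 0.04 and that of CIRBP was -0.02 ± 0.04. Calls of rhythm fell over the whole table with the share as a covariate, from 139 of 12832 rows to 18. With it the rhythm of HSP90AA1 still passed, with an amplitude of 0.79 (edgeR adjusted p = 0.0453). That of the other 7 did not, and of these DNAJB1, HSPA5 and CIRBP had not passed without the covariate either. The amplitude was then 0.96 for HSPA1A (adjusted p = 0.131), 0.87 for HSPA8 (adjusted p = 0.201), 0.72 for HSPH1 (adjusted p = 0.251) and 0.41 for RBM3 (adjusted p = 0.178).

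Within a time point, the chaperones went with the human share at some times and not at others. At ZT 2, with shares of 15.9%, 73.9% and 35.3% in replicates 1, 2 and 3, the liver with the highest share was the highest for 4 of the 6 chaperones. HSPH1 was there at 17.4, 19.6 and 12.7 CPM, while HSPA1A was at 14.4, 13.2 and 13.2 CPM. At ZT 6, with shares of 24.96%, 58.7% and 65.3%, the same held for 1 of the 6, HSPH1, at 15.2, 16.2 and 19.3 CPM. At ZT 10 it held for 5 of the 6, all but HSPA5, and at ZT 14 for 0 of the 6.

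At ZT 18 and at ZT 22 the liver with the highest share was the highest for all 6 chaperones. The one at ZT 18 had the highest share of all 15 livers (93.1%) and the highest level of all 15 for 5 of the 6 chaperones, at 94.4 CPM for HSPA1A, 1069 CPM for HSPA8, 84.5 CPM for HSPH1, 999 CPM for HSP90AA1 and 588 CPM for HSPA5. The liver with the highest share at ZT 22 had 52.5%, against 42.7% in the other liver of that time. Its 12.1 M human counts were the fewest of the 15 livers, against 51.1 M in the other. Over all times such matches made up 22 of 36 cases for the chaperones and 5 of 12 for RBM3 and CIRBP. How many of all human rows match in this way, or are highest in the liver with a share of 93.1%, was not counted. With 2 or 3 livers at a time some matches arise by chance, and the 6 genes move together, so the 22 carry no test. Time and human share move together in these livers, and the part of the share in the chaperones' levels was tested only by the covariate fit above.

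**Figure D2:**
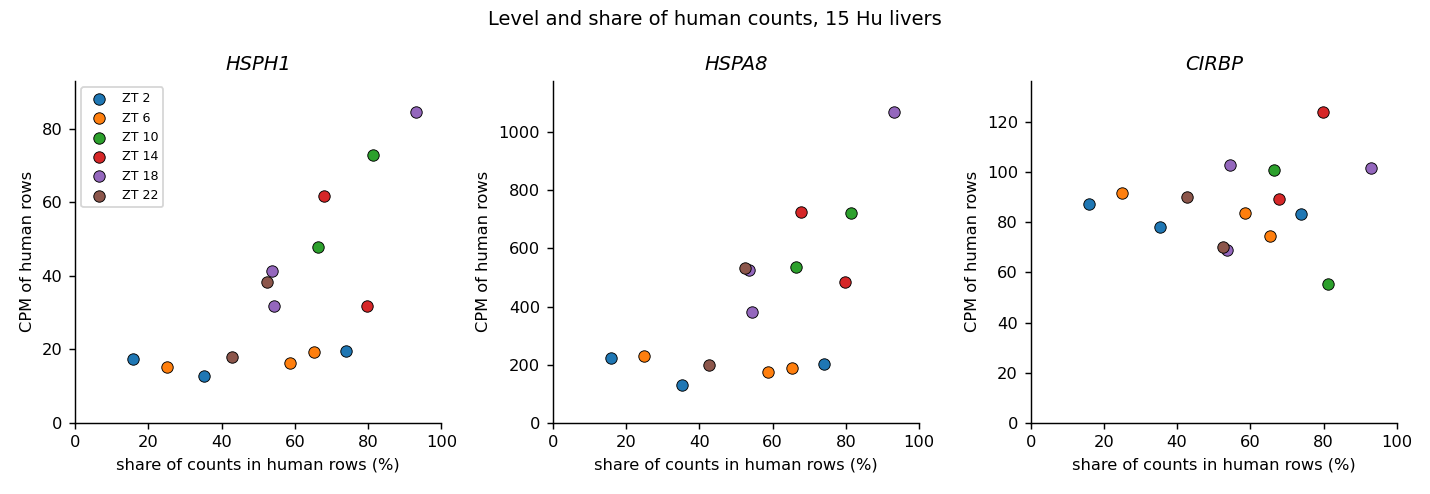
Level of HSPH1, HSPA8 and CIRBP (CPM of human counts) against the human share of the library (% of counts) in the 15 Hu livers, coloured by zeitgeber time. The livers at ZT 2 and ZT 6 span shares from 15.9% to 73.9% and stay low for HSPH1 and HSPA8, and the liver with a share of 93.1% is at 84.5 CPM for HSPH1.

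The other chaperones ranked close to HSPH1 in their liver-to-liver pattern, and RBM3 and CIRBP ranked far from it. Rows were ranked by Pearson's r of log2 CPM with HSPH1 over the 15 Hu livers, a description without a test, since the livers share depth, human share and time. Of the 12831 other rows, ENSG00000168439 came first (r = 0.977). HSPA8 ranked 2 (r = 0.974), HSPA1A ranked 9, HSPA5 ranked 18, DNAJB1 ranked 24 and HSP90AA1 ranked 165 (r = 0.827). RBM3 ranked 2014 (r = 0.448) and CIRBP ranked 7052 (r = -0.06). Not every pair of chaperones was as close: against HSP90AA1 the others ranked from 31 (HSPA5, r = 0.895) to 373 (HSPA1A, r = 0.753). The row ENSG00000168439 had an amplitude of 0.71 with a peak at ZT 15.1 and did not pass the rhythm test (edgeR adjusted p = 0.0543). Against CIRBP, the first row was ENSG00000105948 (r = 0.852), and RBM3 ranked 533 (r = 0.490).

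The mouse orthologs were read in the mouse rows of all 27 livers, in one fit over 14977 mouse rows with levels as CPM of mouse counts. In Mu livers, whose hepatocytes are mouse cells, all 8 orthologs were rhythmic, against 17.3% of mouse rows tested (edgeR quasi-likelihood test, adjusted p from 6.21e-05 for Hspa8 to 0.0212 for Hspa1a). At an unadjusted p under 0.05 it took 31.7% of mouse rows. Hsph1 had the largest amplitude, 1.48 (log2), with the peak at ZT 17.2. It was at 22.5 and 58.1 CPM at ZT 2, 40.3 and 21.5 CPM at ZT 6, 34.2 and 21.98 CPM at ZT 10, 205 and 210 CPM at ZT 14, 177 and 153 CPM at ZT 18, and 80.3 and 93.2 CPM at ZT 22. All Mu livers of the dark times were above all Mu livers of the light times. How many of all mouse rows separate in this way was not counted. Hspa8 (amplitude 1.20, peak ZT 15.5), Hspa1a (1.26, ZT 13.4), Hsp90aa1 (1.17, ZT 17.97) and Dnajb1 (0.70, ZT 15.9) peaked in the dark too. The amplitude of Hspa1a had a jackknife SE of 0.57, and its call held in 25 of 27 fits without a liver. Hspa5 peaked later, at ZT 21.3 (amplitude 0.65), and Rbm3 near ZT 12.9 (amplitude 0.48).

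Among the orthologs with a promoter window here, only Hsph1 held an exact match to the searched form of the heat shock element, the HSF1 binding motif. Its site is shown for that reason. Rbm3, Hsp90aa1 and Hspa8 had no window. RefSeq windows (GRCm38.p6, 250 bases before to 50 after a gene's start) were in the table for Cirbp, Hsph1, Dnajb1, Hspa1a and Hspa5, with 2 windows each for Cirbp, Hsph1 and Dnajb1. The letters searched were 3 alternating units of GAA and TTC with any 2 bases between neighbours, starting with either unit, which covers both strands, and 0.603% of all 32851 windows of 300 bases held a match. The match in Hsph1 lies on the minus strand, after the annotated start, at bases 266 to 278 of one window and 287 to 299 of the other. It is shown with 8 bases on either side, a stretch at chr5:149636280-149636308, with the matched letters in capitals.
Hsph1: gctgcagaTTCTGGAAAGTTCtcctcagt
The windows of the other 4 genes did not hold these letters, and looser forms of the element were not searched. A match describes the sequence only.

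Cirbp was the ortholog that peaked in the light in Mu livers. It was at 94.7 and 43.2 CPM at ZT 2, 40.8 and 84.0 CPM at ZT 6, and 56.3 and 69.3 CPM at ZT 10. In the dark it was at 19.8 and 18.1 CPM at ZT 14, 15.4 and 12.6 CPM at ZT 18, and 22.3 and 25.8 CPM at ZT 22. Every light liver was above every dark one, a separation that was not counted over all mouse rows. The amplitude was 1.30 (log2) and the peak ZT 5.61 (edgeR adjusted p = 0.000390). The human row of CIRBP, by its own fit, had an amplitude of 0.13 and overlapping times. The human and the mouse rhythm were fitted on separate tables, and the difference between them was not tested.

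**Figure D3:**
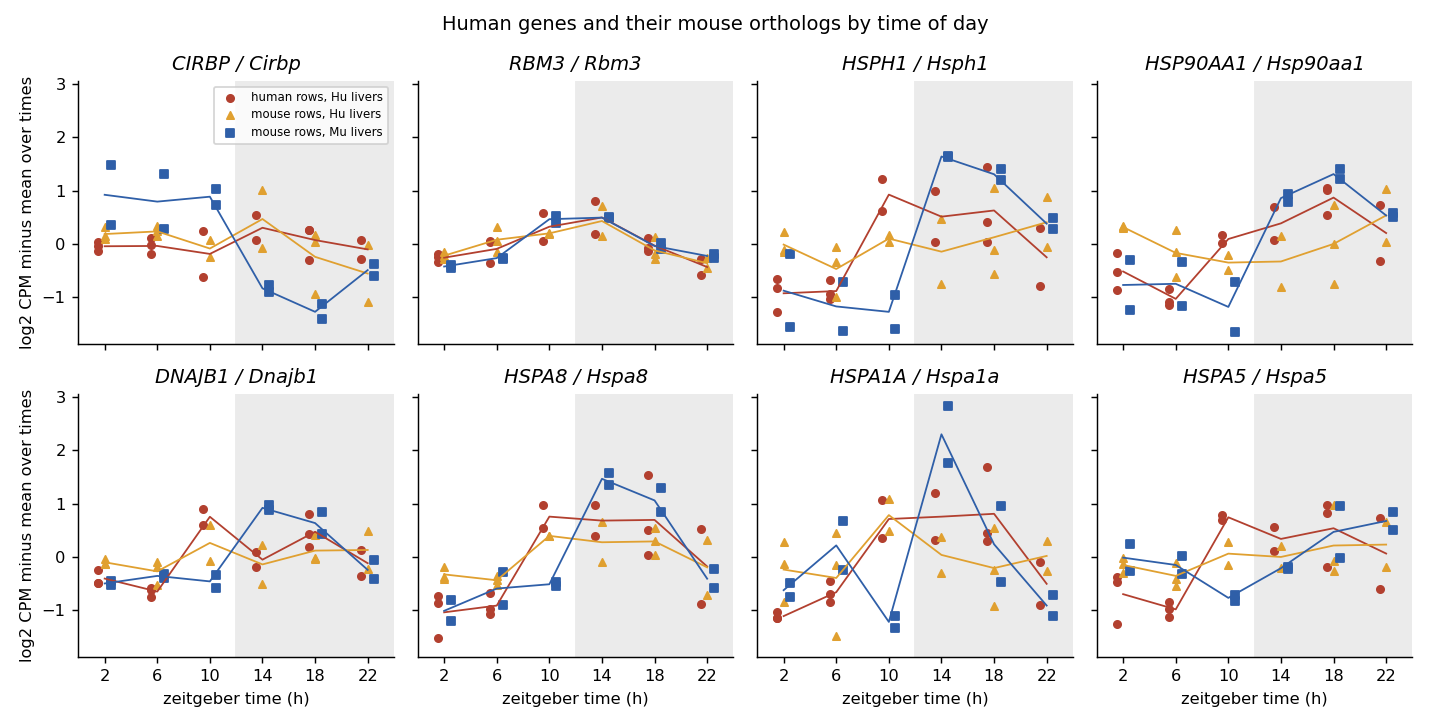
Level relative to the gene's own mean (log2) against zeitgeber time (h) for each gene in human rows of Hu livers, mouse rows of Hu livers and mouse rows of Mu livers; each point is 1 liver, lines join the means of the time points, and ZT 12 to 24 is shaded. Cirbp of Mu livers is high from ZT 2 to ZT 10 and low from ZT 14 to ZT 22, while CIRBP of human rows stays near its mean.

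The step from ZT 10 to ZT 14 can be set side by side for the cytosolic chaperones. In Mu livers the level at ZT 14 was 7.38 times that at ZT 10 for Hsph1, 12.3 times for Hspa1a, 3.96 times for Hspa8, 3.92 times for Hsp90aa1 and 2.60 times for Dnajb1. In human rows the same ratio of means was 0.776 for HSPH1, 1.04 for HSPA1A, 0.958 for HSPA8, 1.25 for HSP90AA1 and 0.571 for DNAJB1. The mouse rows of the same Hu livers lacked the step of Mu livers too. There the ratio lay between 0.599 (Hspa1a) and 1.07 (Hsp90aa1) for the same genes. These ratios rest on 2 livers at each time in either arm and were not tested against each other. Without ZT 10, the human peaks were fitted at ZT 14.9 for HSPA1A and ZT 16.1 for HSPH1 and HSPA8. They were fitted at ZT 17.9 for HSP90AA1 and ZT 17.96 for DNAJB1.

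In the mouse rows of Hu livers, none of the 8 orthologs was rhythmic, where 0.167% of mouse rows were (edgeR quasi-likelihood test). At an unadjusted p under 0.05 the test took 2 of the 8 and 15.8% of all rows. DESeq2 called Rbm3 (adjusted p = 0.00542), among 516 mouse rows where edgeR called 25. The amplitude was 0.33 for Hsph1 (adjusted p = 0.595), 0.44 for Hspa8 (adjusted p = 0.231), 0.26 for Cirbp (adjusted p = 0.669) and 0.36 for Rbm3 (adjusted p = 0.0721). In the test of the difference between arms, the rhythms of Cirbp (edgeR adjusted p = 0.0422) and Hsp90aa1 (adjusted p = 0.0498) differed, 2 of 8 against 1.28% of mouse rows. At an unadjusted p under 0.05 this test took 5 of the 8 and 21% of mouse rows. Hsph1 (adjusted p = 0.0761) and Hspa8 (adjusted p = 0.0926) did not pass. Without 1 liver at a time, 0 to 4 orthologs passed. The call held in 10 of 27 such fits for Cirbp and in 9 of 27 for Hsp90aa1.

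Cell type markers in the mouse rows spanned a wider range in Hu than in Mu livers. Of 5 hepatocyte markers (4 of them in the mouse rows), the summed level was 13528 to 89608 CPM in Hu livers and 71157 to 91007 CPM in Mu livers. The 4 stellate cell markers summed to 497 to 7376 CPM in Hu livers and 248 to 442 CPM in Mu livers. The 4 Kupffer cell markers summed to 493 to 3411 and 354 to 627 CPM, the 3 markers of sinusoidal endothelium to 236 to 2376 and 193 to 229 CPM, and the 3 red blood cell markers to 55.9 to 490 and 241 to 478 CPM. No marker read was at 0 in all livers of an arm. The part of these cell types in the difference between arms was not tested.

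**Figure D4:**
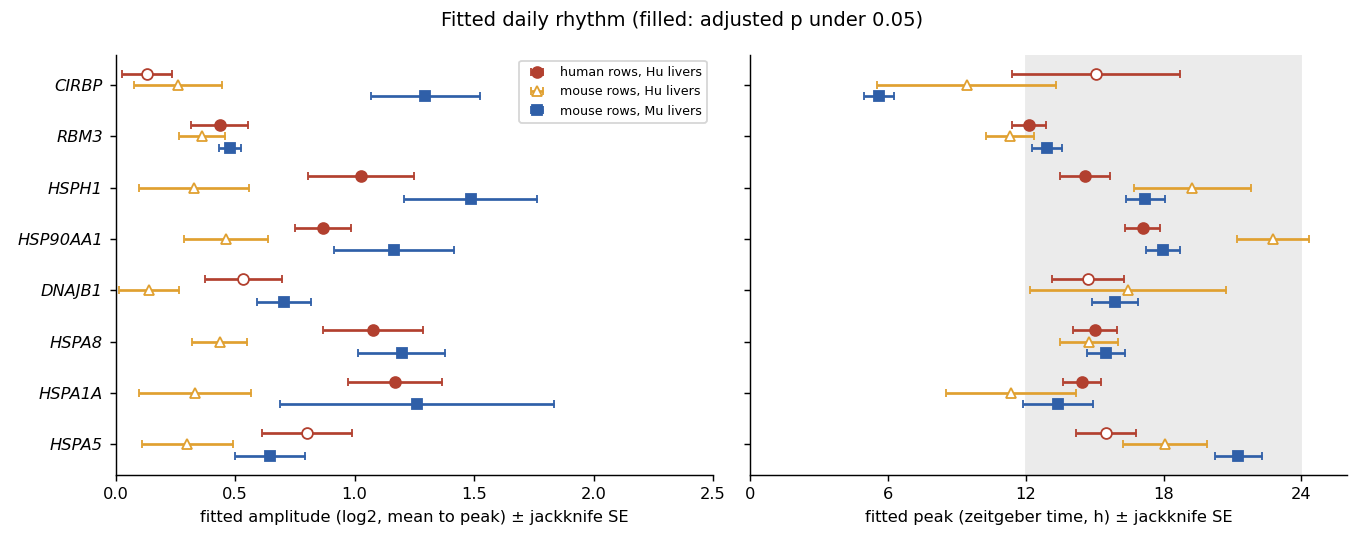
Fitted amplitude (log2, mean to peak) and fitted peak (zeitgeber time, h) of each gene in human rows of Hu livers, mouse rows of Hu livers and mouse rows of Mu livers, with jackknife standard errors; filled symbols passed the rhythm test and ZT 12 to 24 is shaded. Amplitudes of the chaperones in human rows run from 0.53 to 1.17, and Cirbp of Mu livers stands apart with a peak at ZT 5.61.

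The wider set of heat shock and cold genes was read in mouse rows, because no table used here pairs human identifiers with symbols. It held 36 genes, all tested: heat shock factors, further HSP70, HSP90 and J-domain proteins, cochaperones and chaperones of mitochondria and endoplasmic reticulum. These genes too were chosen with earlier results of these data known, so shares of the list are a description only. In Mu livers 15 of the 36 were rhythmic (41.7%, beside 17.3% of all mouse rows), and all 15 peaked between ZT 12 and ZT 24. How many of all rhythmic mouse rows of Mu livers peaked in those hours was not counted. The 6 with the smallest p were Chordc1 (amplitude 0.89, peak ZT 17.4), an HSP90 cochaperone, Dnaja1 (0.89, ZT 15.6) and Dnajb4 (0.61, ZT 15.6), J-domain proteins, Stip1 (0.67, ZT 18.3), which links HSP70 to HSP90, Fkbp4 (0.61, ZT 18.6), an HSP90-bound immunophilin, and Hspa4l (1.06, ZT 18.3), an HSP110 protein. The median amplitude of the 36 was 0.30, beside 0.27 over all mouse rows. In Hu livers 0 of the 36 passed (edgeR quasi-likelihood test), beside 0.167% of all mouse rows, with a median amplitude of 0.18 beside 0.20. The rhythm of Dnajb4 and Dnaja1 differed between arms (both edgeR adjusted p = 0.0412), 2 of the 36 beside 1.28% of all mouse rows.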

How the data were processed

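Bulk RNA-seq of 15 Hu and 12 Mu livers was used. The authors deposited raw counts per gene, with human and mouse genes in one table. The submitters' processing notes name STAR and the builds GRCm38, mm10, GRCh38, hg38 and hg19. The counting program, annotation and strand setting are not given in the sources used here. The library kit keeps strand, per the labels.

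Human rows (17729) and mouse rows (19689) were fitted apart in R 4.3.3 with edgeR 4.0.16 (filterByExpr, TMM, quasi-likelihood F tests), each with its own library size. Rhythm was tested with a cosine and a sine term of 24 h. Adjusted p-values are Benjamini-Hochberg over all rows tested, threshold 0.05. Standard errors of amplitude and peak are jackknife values over livers. CPM are TMM-scaled. Likeness used log2 CPM with a prior count of 2. DESeq2 1.42.0, other library sizes, no filter, the human share as covariate and left-out livers or times were alternatives. The code was tested on simulated data.

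Every member, its mouse ortholog, the 6 genes of smallest p in a wider list and the rows most like HSPH1 and CIRBP are named. The members and lists were chosen with earlier results of these data known. The labels do not say whether replicate numbers pair livers, and the main fits hold no replicate block. Nothing in the labels ties a library to a separate animal beyond its number, so p-values measure the spread between libraries. Symbols were found for 19615 mouse rows and 0 human rows, and member names come with their identifiers. The other tissues are not analysed here.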

Additional observations from a re-analysis of the deposited data

Results flagged for a closer look

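The search covered 48 groups of 6 to 8 livers (each gene by arm and by light or dark). In 4 groups the gap of a liver to the next was large for the group's range. Chance gives about 1 in 20 where levels do not change with time. Each group pools several time points, so a change with time cannot be told from an odd liver. Human RBM3 was at 56.2 CPM in replicate 1 at ZT 10, against 38.8 CPM in the next of the 8 light Hu livers. In the mouse rows of the same group, Cirbp was lowest at 21.2 CPM in replicate 2 at ZT 10 (next 26.4 CPM), and Dnajb1 was highest in that liver at 43.1 CPM (next 27.5 CPM). Hsph1 was lowest at 44.1 CPM in replicate 1 at ZT 6 (next 69.4 CPM), a liver with a human share of 24.96%.

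The mouse Cirbp rhythm differed between Hu and Mu livers by the interaction test (edgeR adjusted p = 0.0422). This call held in 10 of 27 fits without a liver. The rhythm of Hsp90aa1 differed by the same test (edgeR adjusted p = 0.0498), and its call held in 9 of 27 fits without a liver.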

How the results depend on the processing

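Counts of calls moved widely with the settings. For the human rhythm (139 rows, 5 members), DESeq2 called 1125 rows, time as a factor 0 rows and 0 members, the human share as covariate 18 and 1, replicate numbers 1 and 2 alone 0 and 0, and leaving out the 2 libraries under 30% human counts 52 and 0. Without ZT 2, 6, 14, 18 or 22 the rows were 10, 4, 35, 1 and 21 and the members 0, 0, 2, 0 and 2. Leaving out 1 liver gave 14 to 357 rows and 0 to 5 members: 0 without ZT 6 replicate 3, 2 without any liver at ZT 2, ZT 6 replicate 1 or 2, ZT 14 replicate 1 or ZT 18 replicate 3, and 3 without ZT 18 replicate 2 or either liver at ZT 22. For dark against light (2 rows, 0 members), DESeq2 called 287 rows and 1 member, replicate numbers 1 and 2 alone 0 rows, and leaving out the libraries under 30% 12 rows. Without ZT 10, left out after the values were seen, it called 139 rows and 6 members. Without ZT 2 it called 8 rows, and without ZT 6, 14, 18 or 22 0 rows. Without 1 liver it called 2 to 33 rows and 0 members. For the slope on the human share (0 rows, 0 members), DESeq2 called 171 rows and no filter 2; without 1 liver, 0 to 30 rows and 0 members.

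For the mouse rhythm in Hu livers (25 rows, 0 orthologs), DESeq2 called 516 rows and 1 ortholog; without 1 liver, 8 to 827 rows and 0 to 1 orthologs. In Mu livers (2598 rows, 8 orthologs) leaving out a liver gave 1460 to 3559 rows and 7 to 8 orthologs. For the difference between arms (192 rows, 2 orthologs), DESeq2 called 1152 rows and 4 orthologs, and no filter 107 and 1; without 1 liver, 38 to 1009 rows and 0 to 4 orthologs.

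With a replicate block, the human rhythm gave 142 rows and 3 members (RBM3 adjusted p = 0.0615 and HSPH1 adjusted p = 0.0532 no longer passed), and the difference between arms 0 orthologs (Cirbp adjusted p = 0.0506, Hsp90aa1 adjusted p = 0.0514). Same-numbered livers deviated together in part (mean r 0.229 in human rows, 0.115 in mouse rows, over 0.1 in 22 of 33 and 7 of 12 pairs), and 12 of 15 Hu libraries correlated best with their own number. This is a hint from the data, not the design, that numbers may mark something shared. The block was kept as an alternative because the labels state no pairing and not every pair was over 0.1.

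Directions turned for values near 0. The dark minus light difference of RBM3 was -0.038 with the share as covariate, -0.0068 with replicate numbers 1 and 2 alone, -0.041 without ZT 2, -0.16 without ZT 14, and -0.090 to 0.20 without 1 liver. The share slope of CIRBP was 0.033 with the replicate block, 0.020 without the libraries under 30%, 0.0025 without ZT 10 and -0.037 to 0.0020 without 1 liver. That of RBM3 was -0.0061 to 0.030 without 1 liver, and that of HSPA1A was -0.0030 without ZT 18. The cause of these moves was not tested. Time points hold 2 or 3 livers, the lowest human depth was 12.1 M counts at ZT 22, and the human share moved with time, so time and share could be separated only in part.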
